A study of Mus musculus with 12 samples.

Results

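The insulin-like growth factor (IGF) genes described here are 10 members chosen by gene symbol: the ligands Igf1 and Igf2, the receptors Igf1r and Igf2r, and the binding proteins Igfbp2 to Igfbp7. All 10 of 10 were present among the 32285 genes of the count table. Their RNA was measured in the nucleus pulposus, the soft centre of the spinal disc, dissected from the tails of 6 Opa1cKO and 6 WT mice, 1 library per mouse. The members were proposed with the Opa1cKO against WT contrast of these libraries known, so the differences between the genotypes are given below as a description of the members and carry no test of their own.

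Opa1cKO mice had lost Opa1, the inner mitochondrial membrane GTPase, in disc and cartilage through AcanCre, a tamoxifen-activated recombinase expressed with aggrecan, from the age of 3 months. WT mice were the comparison, and the sources used here do not say whether they carried the recombinase. Both genotypes were of the C57BL/6-129/SvEv background, received tamoxifen at 100 mg/kg on 3 days, and were sampled at 12 months of age, which was 9 months after the deletion. The deletion was not restricted to the nucleus pulposus, and the libraries are of whole dissected tissue, so fewer cells of a type and less RNA per cell cannot be told apart in any value below.

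IGF-I and IGF-II act mainly through the IGF-I receptor, a tyrosine kinase that signals through insulin receptor substrates to the PI3K-AKT and MAPK pathways. The IGF-II receptor takes IGF-II up for degradation and carries mannose 6-phosphate bearing enzymes to lysosomes. The binding proteins hold IGFs in blood and matrix, and proteases that cleave them set the ligands free. In cultured disc and cartilage cells IGF-I is known as a stimulus of proteoglycan synthesis.

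Opa1 had 40.6 ± 6.30 CPM (counts scaled by library total and TMM factor) in Opa1cKO libraries and 102 ± 17.3 CPM in WT libraries (SD, n = 6 each), with no overlap. Library totals were 37268242 to 56618266 counts in Opa1cKO and 45657321 to 53261644 counts in WT, so a floor of 3 counts equals 0.0530 to 0.0805 CPM. WT 1 to 4 were labelled female and WT 5 and 6 male. Opa1cKO 1 to 4 were labelled male and Opa1cKO 5 and 6 female. Sex-linked reads contradicted the labelled sex in 4 libraries, Opa1cKO 4, WT 4, WT 5 and WT 6, and results that move without them are given with and without them. By the reads WT 4 was the only male WT library, and Opa1cKO 1, 2 and 3 were male. Sex was thus unbalanced between the genotypes either way. Without the 4, all WT libraries were female, and a sex-adjusted comparison rested on WT 1, 2 and 3 against Opa1cKO 5 and 6. The nucleus pulposus label was checked with 14 markers: brachyury (T) had 2882 ± 274 CPM in Opa1cKO and 2719 ± 245 CPM in WT, and Krt19 had 2095 ± 570 CPM in Opa1cKO and 2097 ± 456 CPM in WT. Of these markers only Car12 was below 0.1 CPM in both genotypes, and Noto was close to it, at 0.101 CPM in Opa1cKO and 0.213 CPM in WT. Other markers differed more than T and Krt19. Acan had 8628 ± 2968 CPM in Opa1cKO and 13062 ± 2325 CPM in WT, and Cd24a and Foxa2 were also lower in Opa1cKO. Col2a1 was higher, at 1261 ± 971 CPM in Opa1cKO and 608 ± 152 CPM in WT.

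The upstream sequences of Igf2r and Igfbp5 are shown because these were the receptor and the binding protein whose levels differed most between the genotypes. Each is the run of 250 bases before the RefSeq transcript start on the GRCm38.p6 (mm10) assembly, 5′ to 3′ on the strand of the gene, at chr17:12769707-12769956 on the minus strand for Igf2r and chr1:72874866-72875115 on the minus strand for Igfbp5. The GENCODE M21 start differs from the RefSeq start for both genes. For Igf2r it is 12769664 against 12769706, and bases just after the RefSeq start were not found in a GENCODE transcript of the gene. For Igfbp5 it is 72874884 against 72874865, so the last printed bases lie inside the GENCODE gene. Capitals mark the hypoxia response core, ACGTG or GCGTG on either strand.
Igf2r: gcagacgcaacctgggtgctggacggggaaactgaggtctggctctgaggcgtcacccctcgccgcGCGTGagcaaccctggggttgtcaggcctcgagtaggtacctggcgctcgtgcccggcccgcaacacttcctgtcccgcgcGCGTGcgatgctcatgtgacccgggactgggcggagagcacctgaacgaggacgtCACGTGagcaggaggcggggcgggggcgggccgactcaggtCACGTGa
Igfbp5: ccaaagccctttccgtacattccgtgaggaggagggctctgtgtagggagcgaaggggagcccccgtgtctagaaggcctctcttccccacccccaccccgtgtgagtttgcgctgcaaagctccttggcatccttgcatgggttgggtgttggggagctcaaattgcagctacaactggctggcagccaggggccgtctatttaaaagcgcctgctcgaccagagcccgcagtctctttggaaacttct
The Igf2r window had 69.2% G or C and held the hypoxia response core in 4 separate places, 2 of them the palindrome CACGTG that matches on both strands. It also held the GC box GGGCGG 3 times. The Igfbp5 window had 58.8% G or C and held no hypoxia response core, no TATAAA, no CCAAT box and no GC box on either strand. The search was for these exact letters only, so the window may still hold another form of the TATA box. Among 32851 RefSeq promoter windows of the same length, 38.6% held ACGTG or GCGTG, 32.7% held GGGCGG, 33.8% held CCAAT and 12.4% held TATAAA. A match of letters describes the window and does not mark a bound site.

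Across lengths, the members fell into an abundant and a scarce set in both genotypes. Levels were compared between genes in TPM, a share of transcripts in which reads are divided by length. In Opa1cKO libraries the mean TPM ran from Igf2r at 191 ± 49.3 through Igf1r at 170 ± 34.3, Igfbp7 at 76.1 ± 18.1, Igfbp6 at 9.34 ± 1.63 and Igfbp5 at 6.46 ± 1.19 to Igfbp4 at 1.13 ± 0.825. In WT libraries it ran from Igf1r at 187 ± 19.3 through Igf2r at 138 ± 17.5, Igfbp7 at 54.8 ± 12.4, Igfbp5 at 50.2 ± 18.2 and Igfbp6 at 15.6 ± 3.48 to Igfbp4 at 0.503 ± 0.244. Igf2, Igf1, Igfbp3 and Igfbp2 stayed below 1 TPM on average in both genotypes.

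Several neighbours in these orders had overlapping TPM ranges. In Opa1cKO, Igf2r exceeded Igf1r in 4 of 6 libraries and Igfbp6 exceeded Igfbp5 in 5 of 6, so neither pair differed beyond its spread. In WT, Igfbp7 exceeded Igfbp5 in 4 of 6 libraries, likewise within the spread. In WT, Igf1r exceeded Igf2r in 6 of 6 libraries although the ranges overlapped, and the Igf2r to Igf1r ratio within a library was 0.655 to 0.826. The step from Igfbp6 to Igfbp4 in WT was 31.0-fold in mean TPM with no overlap, while in Opa1cKO the step from Igfbp5 to Igfbp4 was 5.73-fold with no overlap. Among all 32128 symbols ranked by mean TPM, Igfbp5 stood at rank 10939 in Opa1cKO and at rank 3761 in WT, whereas Igf1r stood at rank 899 in Opa1cKO and 809 in WT.

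**Figure D1:**
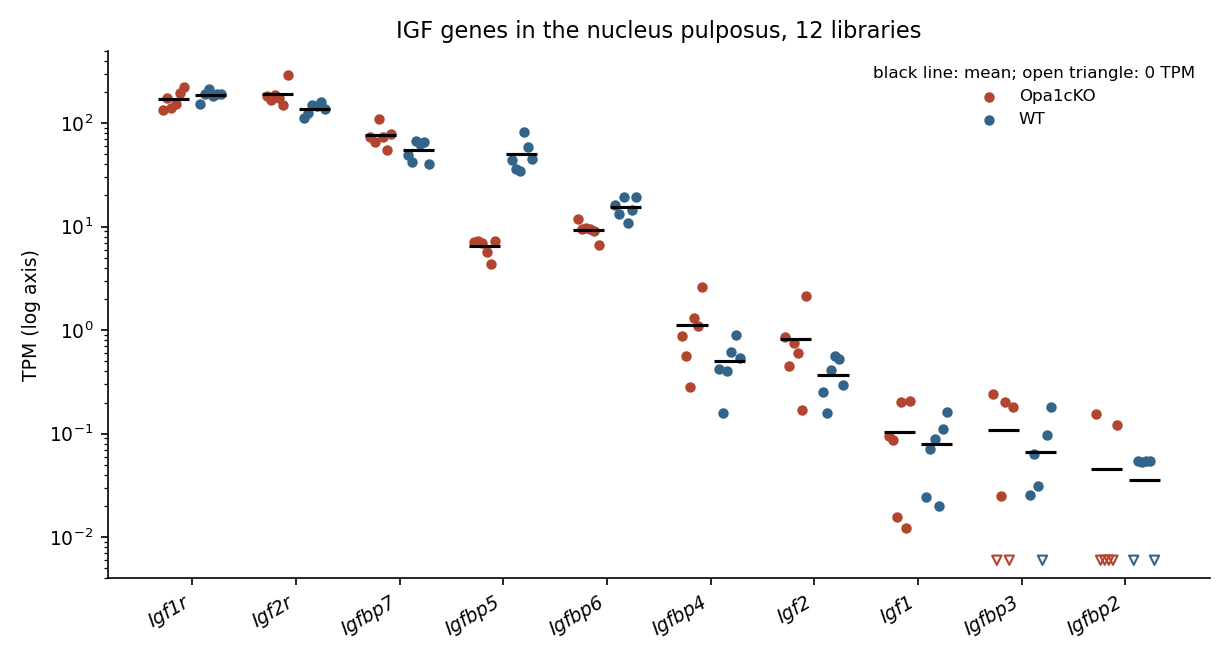
TPM of the 10 IGF members on a log axis, 1 point per library, with Opa1cKO left of WT for each gene, a black line at the mean and open triangles for libraries at 0 TPM. The receptors and Igfbp7 sit highest in both genotypes, and Igfbp5 is the member whose mean moved furthest, with 6.46 TPM in Opa1cKO and 50.2 TPM in WT.

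Of the 10 members, 7 passed the filter on low counts and 3 (Igf1, Igfbp2 and Igfbp3) did not. A gene was called at a Benjamini-Hochberg adjusted p below 0.05 in edgeR's quasi-likelihood fit of labelled sex and genotype. By that criterion 3 members were called, Igf2r higher and Igfbp5 and Igfbp6 lower in Opa1cKO, beside 10.2% of all 15229 genes tested (5.1% higher and 5.13% lower). The ranges of the genotypes were apart for 1 member, Igfbp5, beside 6.41% of all genes tested. The median log2 fold change was 0.42 over the 7 members that passed the filter and 0.01 over all genes tested. The members' median was 0.19 without Opa1cKO 6, 0.26 without WT 6, 0.27 without the 4 libraries of contradicted sex, and -0.11 over the 5 members that averaged at least 1 CPM under that stricter filter. The members were chosen with this contrast in view, so these counts describe them and nothing is read from the comparison with the background.

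The ligand genes were scarce in every library. Igf1 encodes the growth hormone responsive ligand and lies at chromosome 10, 87858265 to 87937042, on the plus strand. It had between 1 and 19 counts per Opa1cKO library and between 2 and 17 counts per WT library, and it was not tested. In CPM this was 0.0269 at the lowest, 0.193 at the median and 0.447 at the highest in Opa1cKO, against 0.0414, 0.175 and 0.355 in WT. The WT range lay inside the Opa1cKO range, and the lowest library of each genotype was under the floor of 3 counts.

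Igf2, the fetal growth factor gene expressed from the paternal allele in most mouse tissues, lies at chromosome 7, 142650766 to 142666816, on the minus strand. It had 0.215, 0.860 and 2.55 CPM at the lowest, median and highest Opa1cKO library, against 0.199, 0.449 and 0.662 CPM in WT. Opa1cKO 1, 3, 4 and 6 were above every WT library and Opa1cKO 5 was close to the lowest WT library. The log2 fold change of Igf2, Opa1cKO over WT, was 1.20 (SE 0.498) and was not called. It was 0.19 without Opa1cKO 6, 1.49 and called without Opa1cKO 5, and 1.96 but not called without the 4 libraries of contradicted sex. Summed as TPM, the ligands reached 0.934 ± 0.748 in Opa1cKO and 0.448 ± 0.164 in WT.

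Macrophages are a known source of IGF-I in many tissues, so their markers were read beside the ligand genes. Of 10 macrophage markers, Adgre1, C1qa, C1qb, Cx3cr1 and Fcgr1 were below 0.1 CPM in both genotypes. The summed level of the 10 was 97.1 to 117 CPM in Opa1cKO and 105 to 197 CPM in WT. Cd68 rose in Opa1cKO to 38.6 ± 6.51 CPM, against 15.3 ± 2.97 CPM in WT, while Csf1r fell to 66.2 ± 8.85 CPM, against 116 ± 34.7 CPM in WT, and the scavenger receptor gene Cd163 fell to 0.319 ± 0.197 CPM, against 5.65 ± 1.57 CPM in WT. The edgeR adjusted p was 0.000152 for Cd68, 0.00468 for Csf1r (not called without the 4 libraries of contradicted sex) and 4.45e-05 for Cd163. Their part in the ligand levels was not tested.

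The receptor genes were the most abundant members. Igf1r, which encodes the signalling receptor, lies at chromosome 7, 67952827 to 68233668, on the plus strand. It had 484, 592 and 775 CPM at the lowest, median and highest Opa1cKO library, against 606, 702 and 785 CPM in WT. The ranges overlapped widely, with Opa1cKO 1, 3 and 4 below every WT library and Opa1cKO 5 and 6 near the top of the WT range. Its log2 fold change was -0.11 (SE 0.112), was not called, and was 0.10 without the 4 libraries of contradicted sex.

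Igf2r encodes the IGF-II and mannose 6-phosphate receptor, which is expressed mainly from the maternal allele in mouse. It lies at chromosome 17, 12682406 to 12769664, on the minus strand, and its upstream window is printed above. It had 310, 363 and 556 CPM at the lowest, median and highest Opa1cKO library, against 244, 283 and 319 CPM in WT. Opa1cKO 1, 2, 3, 4 and 6 were above every WT library, Opa1cKO 5 lay within the WT range, and Opa1cKO 6 stood far above the rest. The log2 fold change was 0.46 (SE 0.136), and it was 0.23 and no longer called without Opa1cKO 6. Across all 24 alternative settings the value ran from 0.23 to 0.69, always positive, and the call was lost in 14 of them, 9 of which left out a single library.

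Reads from the antisense transcript Airn, which overlaps Igf2r on the other strand, cannot be told apart from Igf2r reads because the sources used here do not state how the counting treated strand. Airn itself had 15.7 ± 4.20 CPM in Opa1cKO and 13.3 ± 1.40 CPM in WT, with a log2 fold change of 0.33 (SE 0.141) and an edgeR adjusted p of 0.155. The ratio of Igf2r to Igf1r TPM was 1.14 ± 0.234 in Opa1cKO and 0.739 ± 0.0635 in WT. In 5 of 6 Opa1cKO libraries this ratio was above every WT library, the exception being Opa1cKO 5 at 0.769. The summed receptor TPM overlapped, at 316 to 511 in Opa1cKO and 265 to 362 in WT.

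**Figure D2:**
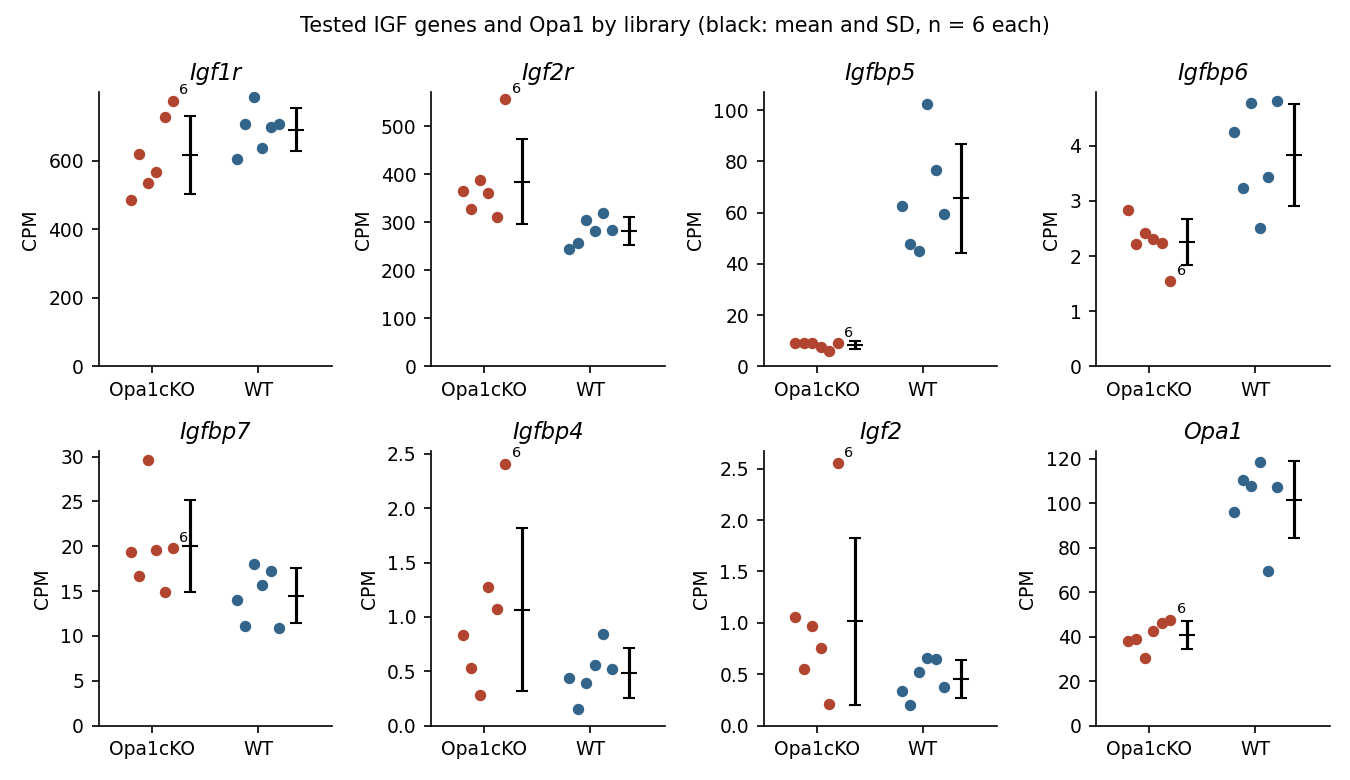
CPM of the 7 tested IGF members and Opa1 by library, 1 panel per gene with its own axis from 0, Opa1cKO left of WT, with the mean and SD in black beside the points and the number 6 marking Opa1cKO 6. Igfbp5 is the member whose genotypes do not overlap, at 5.84 to 9.32 CPM in Opa1cKO and 45.1 to 102 CPM in WT, and Opa1cKO 6 is the highest Opa1cKO library for Igf2, Igf2r and Igfbp4.

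Among the binding proteins, Igfbp5 had the largest difference between the genotypes. Its protein binds IGFs with high affinity and also attaches to extracellular matrix and bone mineral. Igfbp5 lies at chromosome 1, 72857932 to 72874884, on the minus strand. It had 5.84, 9.19 and 9.32 CPM at the lowest, median and highest Opa1cKO library, from 217 to 530 counts, against 45.1, 61.1 and 102 CPM in WT, from 2078 to 4943 counts. All 6 Opa1cKO libraries were below all 6 WT libraries, and the mean was 7.83-fold lower in Opa1cKO.

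The log2 fold change of Igfbp5 was -3.02 (SE 0.214). It ranked 20 by size among the 781 genes called lower, and 0.236% of all genes tested had a log2 change of at least that size in either direction. The value ran from -3.12 to -2.79 over 24 alternative settings, and the gene was called in each of them. The spread between libraries was 17.0% of the mean in Opa1cKO and 32.3% in WT, where WT 4 had the highest value.

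None of the tested genes flanking Igfbp5 was called. Igfbp2 lies 5458 bases away on the opposite strand and had 0 to 3 counts per Opa1cKO library and 0 to 1 count per WT library. The ribosomal protein gene Rpl37a, on the far side of Igfbp2, had 281 ± 42.1 CPM in Opa1cKO and 264 ± 39.2 CPM in WT, with a log2 fold change of 0.10 and an edgeR adjusted p of 0.661. Tns1, on the other flank beyond the undetected Tnp1, had 802 ± 50.8 CPM in Opa1cKO and 825 ± 87.2 CPM in WT, with a log2 fold change of -0.05 and an edgeR adjusted p of 0.777.

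Igfbp6 encodes the binding protein that prefers IGF-II over IGF-I, and lies at chromosome 15, 102144362 to 102149511, on the plus strand. It had 1.54, 2.27 and 2.84 CPM at the lowest, median and highest Opa1cKO library, against 2.50, 3.84 and 4.81 CPM in WT. All Opa1cKO libraries other than Opa1cKO 1 were below every WT library, and Opa1cKO 1 lay above the lowest, WT 4. The log2 fold change was -0.86 (SE 0.206). It was -0.74 without Opa1cKO 6, -0.79 without WT 6 and -1.11 without the 4 libraries of contradicted sex, and the call was lost in each of these fits.

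Igfbp7, whose secreted product has low affinity for IGFs, lies at chromosome 5, 77349240 to 77408041, on the minus strand. It had 14.9, 19.4 and 29.7 CPM at the lowest, median and highest Opa1cKO library, against 10.9, 14.8 and 18.0 CPM in WT. Opa1cKO 1, 3, 4 and 6 were above every WT library. The log2 fold change was 0.42 (SE 0.187), was 0.26 without WT 6 and 0.27 without the 4 libraries of contradicted sex, and was not called in any of these fits. Its last bases overlap the end of Polr2b on the opposite strand, which had 73.0 ± 12.6 CPM in Opa1cKO and 77.9 ± 7.76 CPM in WT.

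Igfbp4 encodes a binding protein that is cleaved by pappalysin and lies at chromosome 11, 99041244 to 99054392, on the plus strand. It had 0.281, 0.956 and 2.41 CPM at the lowest, median and highest Opa1cKO library, against 0.155, 0.479 and 0.846 CPM in WT. Opa1cKO 4, 5 and 6 were above every WT library and the ranges overlapped. The log2 fold change was 1.14 (SE 0.483), was not called, and was 0.63 without Opa1cKO 6 and 2.40 without the 4 libraries of contradicted sex, also not called.

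Igfbp2 and Igfbp3 were near or below the floor of 3 counts. Igfbp3, the main carrier of IGFs in blood, lies at chromosome 11, 7206086 to 7213923, on the minus strand, and had 0 to 8 counts per Opa1cKO library and 0 to 6 counts per WT library. Igfbp2, a binding protein abundant in fetal tissues, lies at chromosome 1, 72824503 to 72852474, on the plus strand. The adjoining Igfbp1, 3540 bases from Igfbp3, had 0 counts in all 12 libraries. A difference between genotypes was not detectable at this depth for Igfbp2 and Igfbp3.

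The make-up of the binding protein RNA differed more than its sum. Summed over Igfbp2 to Igfbp7, the level was 70.0 to 126 TPM in Opa1cKO with a mean of 93.1 ± 18.6, and 91.3 to 157 TPM in WT with a mean of 121 ± 24.2. Igfbp5 made up 7.02% ± 1.22 of the sum in Opa1cKO and 40.8% ± 7.85 in WT, and Igfbp7 made up 81.2% ± 3.04 in Opa1cKO and 45.3% ± 6.05 in WT (SD, n = 6 each). Neither share overlapped between the genotypes. These shares add to a fixed whole, so the larger Igfbp7 share in Opa1cKO is in part the smaller Igfbp5 share seen from the other side. Igfbp6 held 10.3% ± 2.49 in Opa1cKO and 13.5% ± 4.18 in WT, with overlapping ranges.

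**Figure D3:**
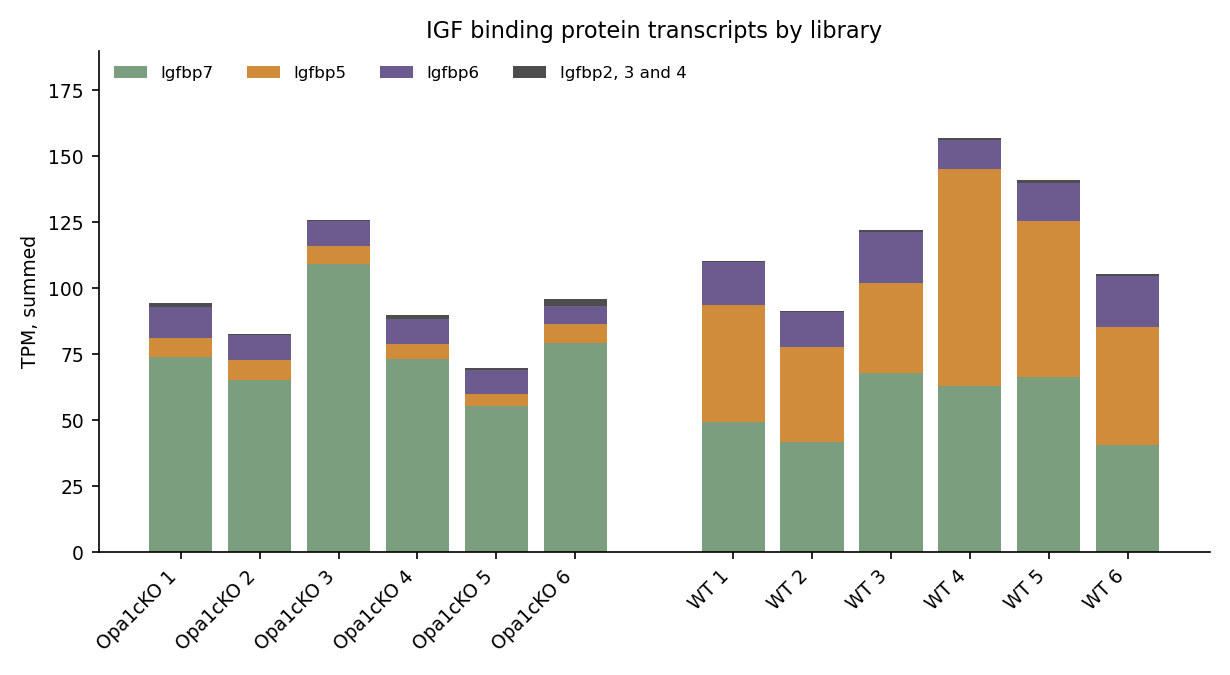
TPM summed over Igfbp2 to Igfbp7 in each library, stacked by gene, with the 6 Opa1cKO libraries left of the 6 WT libraries. The total overlaps between genotypes, at 70.0 to 126 TPM in Opa1cKO and 91.3 to 157 TPM in WT, while the Igfbp5 segment is 5.48% to 8.84% of each Opa1cKO bar and 28.0% to 52.6% of each WT bar.

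**Figure D4:**
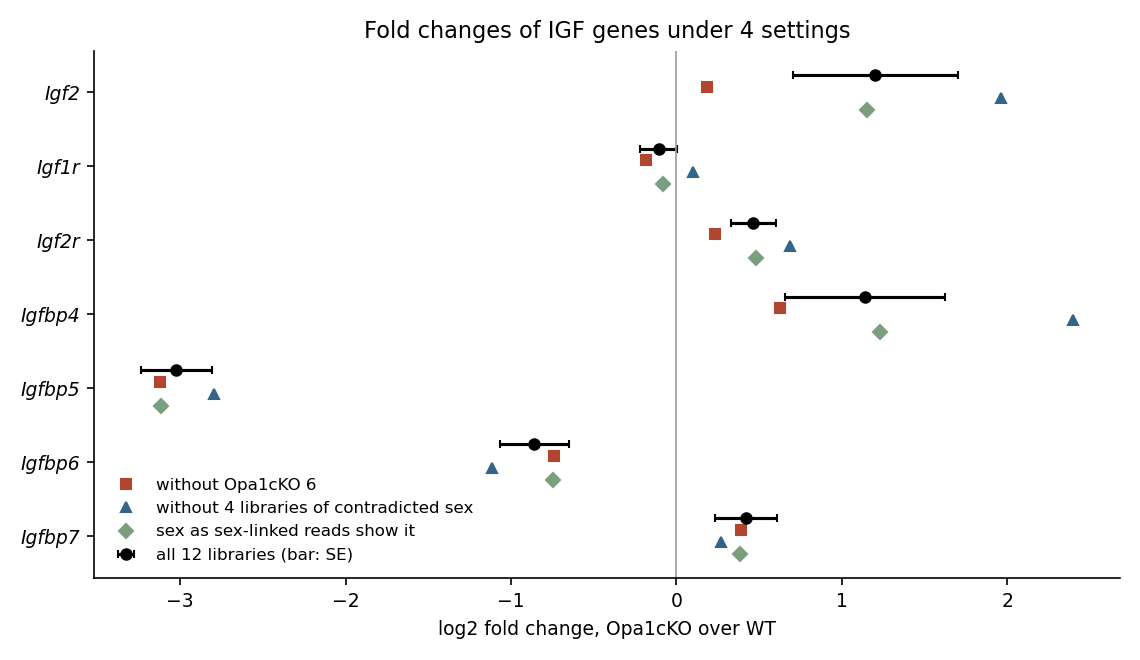
Log2 fold change, Opa1cKO over WT, of the 7 tested members under 4 settings: all 12 libraries (black, with the standard error as a bar), without Opa1cKO 6, without the 4 libraries of contradicted sex, and with sex taken from the reads. Igfbp5 is far below 0 in each, Igf2r is 0.46 with all libraries and 0.23 without Opa1cKO 6, and Igf1r is -0.11 with all libraries and 0.10 without the 4.

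Markers of other cells in or near the disc were compared between the genotypes beside these values. Of 8 endothelial markers, Emcn, Tek, Tie1, Kdr and Cldn5 averaged below 0.1 CPM over the 12 libraries, and the sum was 2.53 to 4.59 CPM in Opa1cKO and 1.77 to 3.90 CPM in WT. Of 8 pericyte and smooth muscle markers, Cspg4 rose to 586 ± 336 CPM in Opa1cKO, against 277 ± 53.2 CPM in WT, with a log2 fold change of 1.13 (SE 0.315) and an edgeR adjusted p of 0.0426. The Cspg4 value was 0.50 and not called without Opa1cKO 6, and the call was lost without any of 10 single libraries. Without the 4 libraries of contradicted sex it was 1.55 and not called. The pericyte and smooth muscle sum did not overlap, at 665 to 1523 CPM in Opa1cKO and 548 to 658 CPM in WT. Without Cspg4 the sum overlapped, at 195 to 432 CPM in Opa1cKO and 238 to 465 CPM in WT. Acta2 had 288 ± 81.8 CPM in Opa1cKO and 251 ± 72.8 CPM in WT and was not called. Rgs5, Notch3, Kcnj8 and Des were scarce. Rgs5 averaged 0.387 CPM in Opa1cKO and 0.175 CPM in WT, and Notch3 0.324 CPM and 0.0322 CPM. Kcnj8 averaged 0.0185 CPM in Opa1cKO and 0.00723 CPM in WT, and Des 0.802 CPM and 0.346 CPM. Whether Cspg4 marks pericytes in this tissue was not tested, so no change in their number is read from the sum. Myh11 had 35.3 ± 9.86 CPM in Opa1cKO and 62.9 ± 25.9 CPM in WT and was not called, and Pdgfrb had 14.4 ± 3.75 CPM in Opa1cKO and 13.9 ± 4.90 CPM in WT. The part of the Cspg4 difference in the Igfbp5, Igfbp6 and Igf2r values was not tested.

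Of the 12 tested nucleus pulposus markers, 2 fell in Opa1cKO, the glucose transporter gene Slc2a1 (log2 fold change -0.78, edgeR adjusted p 0.000839) and the N-cadherin gene Cdh2 (-0.43, adjusted p 0.0137), and none rose. The Cdh2 call was lost without WT 6 and without the 4 libraries of contradicted sex. Acan, Cd24a, Foxa2 and Col2a1 were not called. Of all genes tested, 5.1% were called higher and 5.13% lower. The nucleus pulposus sum was 18533 to 26638 CPM in Opa1cKO and 22764 to 31975 CPM in WT, and its part in the member values was not tested. In bone, 1 of 3 tested markers fell, Phex (-1.47, edgeR adjusted p 0.01), a call lost without those 4 libraries, with sums of 51.1 to 72.3 CPM in Opa1cKO and 54.6 to 65.6 CPM in WT. None of the tested markers was called for fibroblast and tendon (9 tested, 1569 to 2641 CPM in Opa1cKO and 1312 to 1946 CPM in WT), growth plate chondrocytes (5 tested, 17.0 to 69.8 CPM and 9.75 to 32.6 CPM) or Schwann cells and nerve (4 tested, 29.1 to 36.5 CPM and 22.5 to 31.1 CPM). Nor was any called for skeletal muscle (6 tested, 2.64 to 42.4 CPM and 2.97 to 45.3 CPM), blood (2 tested, 0.182 to 4.33 CPM and 0.0651 to 10.8 CPM) or keratinocytes (2 tested, 2.20 to 4.22 CPM and 2.88 to 5.60 CPM), while adipocyte markers were too low to test (0.193 to 1.30 CPM and 0.0434 to 0.607 CPM, each pair with Opa1cKO before WT).

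The genes that act on or with these members were described from 5 lists. Beside their counts, 5.1% of all genes tested were called higher and 5.13% lower. The lists were chosen with earlier results of these data known, so nothing is read from the comparison. In the list of IGFBP proteases, 3 of 11 tested genes fell and none rose, with a median log2 fold change of 0.01, the same as over all genes. This list also held Stc1 and Stc2, which encode inhibitors of pappalysins rather than proteases. Stc2 was among the 11 (log2 fold change -0.74, not called), and Stc1 was not tested. Htra3, a secreted serine protease gene, had 35.6, 36.6 and 44.4 CPM at the lowest, median and highest Opa1cKO library, against 52.5, 76.4 and 83.6 CPM in WT. Its log2 fold change was -0.93 (SE 0.114) with an edgeR adjusted p of 0.000235, the ranges did not overlap, and it was called without any single library and without the 4 libraries of contradicted sex.

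Htra1, a serine protease gene of cartilage and disc known to cleave IGFBP5 and matrix proteins, was far more abundant. It had 939, 1230 and 1544 CPM in Opa1cKO, against 1490, 1845 and 2119 CPM in WT, with a log2 fold change of -0.62 (SE 0.136) and an edgeR adjusted p of 0.0115. Adam9, a metalloprotease gene, averaged 76.8 ± 6.22 CPM in Opa1cKO and 101 ± 12.4 CPM in WT, with a log2 fold change of -0.35 (SE 0.0902) and an edgeR adjusted p of 0.025. The Htra1 call held with each single library left out, and the Adam9 call was lost without Opa1cKO 5 or Opa1cKO 6. Neither was called without the 4 libraries of contradicted sex, where the Adam9 value was -0.54. Pappa, which encodes the protease of IGFBP4, had 0.802 ± 1.14 CPM in Opa1cKO and 0.354 ± 0.293 CPM in WT and was not called.

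Of 8 tested genes in the list of relatives, 1 fell and none rose, with a median of -0.07. Among the 8 were Igf2bp1, Igf2bp2 and Igf2bp3, which encode RNA-binding proteins and share only a name with the family. None of these was called. Crim1, which encodes a transmembrane protein with an IGF-binding protein like domain, had 148, 192 and 203 CPM at the lowest, median and highest Opa1cKO library, against 209, 243 and 266 CPM in WT. The ranges did not overlap, the log2 fold change was -0.41 (SE 0.0939) and the edgeR adjusted p was 0.0141. The Crim1 call was lost without Opa1cKO 6, without WT 6, and without the 4 libraries of contradicted sex. The insulin receptor gene Insr had 107 ± 11.7 CPM in Opa1cKO and 112 ± 5.89 CPM in WT, and the insulin genes Ins1 and Ins2 had 0 counts.

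Downstream of the receptors, 2 of 44 tested signalling genes fell and none rose, with a median of -0.04. This count is near the share of all genes tested that were called lower, 5.13%. Gab1, a docking protein gene, averaged 106 ± 11.1 CPM in Opa1cKO and 130 ± 17.2 CPM in WT, with a log2 fold change of -0.35 (SE 0.0943) and an edgeR adjusted p of 0.0298. Inppl1, which encodes the lipid phosphatase SHIP2, averaged 102 ± 7.85 CPM in Opa1cKO and 123 ± 7.73 CPM in WT, with a log2 fold change of -0.27 (SE 0.077) and an edgeR adjusted p of 0.040. Both calls depended on single libraries, being lost without any of 3 libraries for Gab1 (Opa1cKO 1, Opa1cKO 6 and WT 6) and any of 7 for Inppl1, and both were lost without the 4 libraries of contradicted sex. With sex taken from the reads neither was called (edgeR adjusted p 0.115 for Gab1 and 0.054 for Inppl1), and 1 gene of the list was called higher and 1 lower. With no sex term Gab1 was not called (edgeR adjusted p 0.0562), and 1 gene of the list was called higher and 3 lower. The genes of the substrates that bind the receptor were not called. Irs1 had 86.6 to 117 CPM in Opa1cKO and 67.9 to 125 CPM in WT, and Irs2 had 61.0 to 233 CPM in Opa1cKO and 77.9 to 233 CPM in WT.

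Growth hormone drives Igf1 in liver, and none of the 6 tested genes of that input was called in edgeR's fit, with a median of 0.09. Socs2, a growth hormone induced inhibitor gene, had 1.68 ± 1.00 CPM in Opa1cKO and 0.680 ± 0.273 CPM in WT, with a log2 fold change of 1.34 (SE 0.446) and an edgeR adjusted p of 0.0714. It was 0.83 (edgeR adjusted p 0.421) without Opa1cKO 6, and it was called without Opa1cKO 4 or Opa1cKO 5. Stat5b, the gene of a transcription factor activated by growth hormone, had 45.3 ± 7.14 CPM in Opa1cKO and 51.3 ± 3.49 CPM in WT, with a log2 fold change of -0.20 (SE 0.107) and an edgeR adjusted p of 0.259.

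Igf2 and Igf2r are both imprinted, and of 9 tested other imprinted growth genes 2 fell and none rose, with a median of -0.34. Peg3 and Zim1 are neighbours in 1 imprinted domain. Zim1 averaged 471 ± 78.6 CPM in Opa1cKO and 750 ± 99.7 CPM in WT, with a log2 fold change of -0.72 (SE 0.122) and an edgeR adjusted p of 0.00241. Peg3 averaged 3987 ± 386 CPM in Opa1cKO and 5667 ± 716 CPM in WT, with a log2 fold change of -0.55 (SE 0.113) and an edgeR adjusted p of 0.00834. Neither gene overlapped between the genotypes and both calls held with each single library left out, but neither was called without the 4 libraries of contradicted sex. H19, next to Igf2, had 0.287 CPM in Opa1cKO and 0.106 CPM in WT and was not tested.

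**Figure D5:**
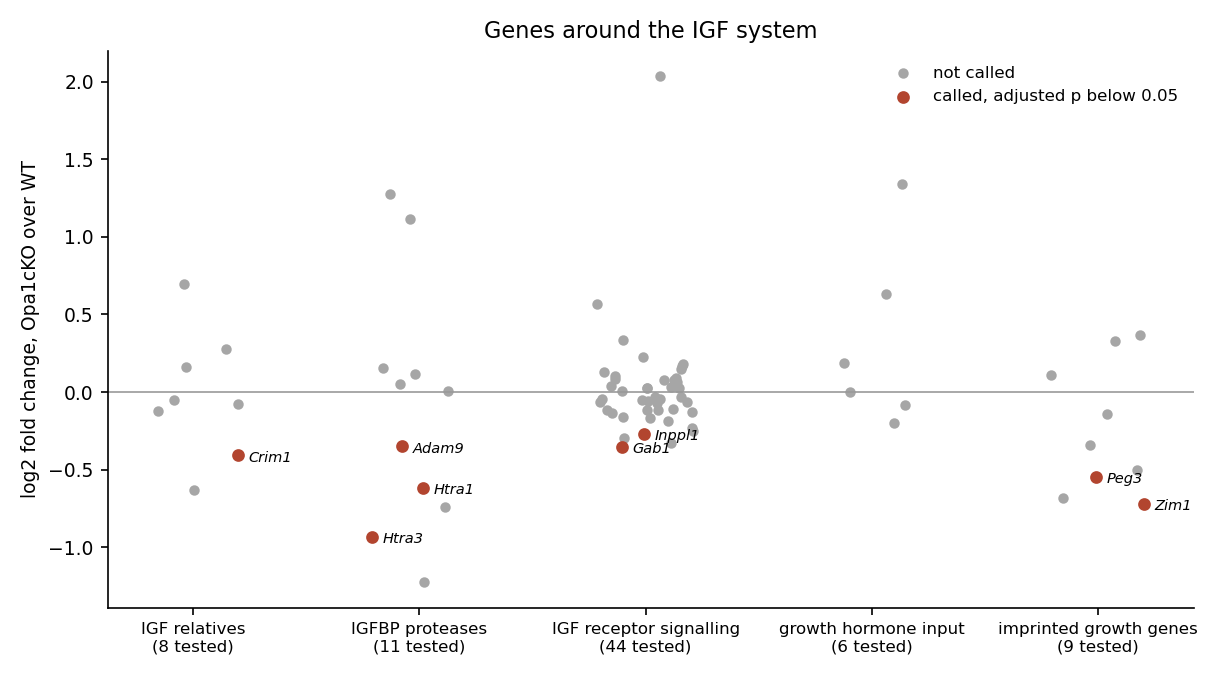
Log2 fold change, Opa1cKO over WT, of every tested gene in the 5 lists of IGF related genes, 1 point per gene, with called genes marked. The called genes are all below 0, with Htra3 at -0.93 and Zim1 at -0.72 the lowest of them. For all genes tested, the shares called were 5.1% higher and 5.13% lower.

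The members were also compared between the labelled sexes, a contrast that did not enter their choice. By labelled sex, none of the 7 tested members was called, male over female, and none had an unadjusted p below 0.05, with edgeR adjusted p-values from 0.961 to 0.977. For Igfbp5 the log2 fold change of labelled males over females was 0.16 (SE 0.205). Over all genes this test called 0%, with 586 of 15229 genes at an unadjusted p below 0.05, and DESeq2 called 5 genes, none a member, and limma-voom 0. The edgeR test thus missed even Xist, which had 8 to 25 counts in libraries male by the reads and 135463 to 214037 in the others. With labels contradicted in 4 libraries, it cannot show whether the members differ by sex. With sex taken from the sex-linked reads, 6 genes (0.0394%; 0.00657% higher and 0.0328% lower in males) were called, none a member, and 1034 genes had an unadjusted p below 0.05. Of these, 2 were members in edgeR's fit: Igfbp5 at 0.51 (SE 0.159, unadjusted p 0.00671, adjusted p 0.556) and Igf1r at -0.27 (SE 0.116, unadjusted p 0.0376, adjusted p 0.718). Among WT libraries only WT 4 was male by the reads, and it had the highest Igfbp5 value, 102 CPM.

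For the 3 called members, the genes whose library-to-library deviations from the genotype means were most alike were listed by Pearson's r of log2 CPM over the 12 libraries, as a description with no test. Igf2r was followed most closely by Loxl3 (r = 0.96, Spearman's rho 0.94), Pde1b (r = 0.95, rho 0.84) and Pla2r1 (r = 0.95, rho 0.80). Igfbp5 was followed by Tcfl5 (r = 0.93, rho 0.74), Tmem30b (r = 0.86, rho 0.88) and Six4 (r = 0.85, rho 0.80). Igfbp6 was followed by Cda (r = 0.92, rho 0.89), Rab5c (r = 0.90, rho 0.85) and Wfdc1 (r = 0.90, rho 0.93). Between the genotypes, the genes alike to Igfbp5 went the other way from it. Their log2 fold changes were 0.81 for Tcfl5 (called), 1.79 for Tmem30b and 0.30 for Six4 (neither called). The genes alike to Igf2r and to Igfbp6 had the same sign as their member. Leaving out the pair of libraries farthest from the median of the member gave r of 0.81 to 0.90 for the Igf2r genes, 0.70 to 0.84 for the Igfbp5 genes and 0.73 to 0.86 for the Igfbp6 genes. These values share the library totals and scaling factors of the same 12 libraries.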

How the data were processed

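Bulk RNA-seq of caudal nucleus pulposus was made per the labels' protocols from 50 ng of RNA with a stranded, rRNA-depleting kit and 14 PCR cycles. The submitters' processing notes name the aligner STAR 2.7.11b and the mm10 genome. The sources used here do not state which program counted reads, or on which annotation and strand. The authors deposited a table of whole-number counts for 32285 genes and a TPM table of 32128 symbols. Gene positions came from GENCODE M21, which held 32235 of the gene identifiers. All 10 members matched the RefSeq promoter table.

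Counts were tested in edgeR 4.0.16 (R 4.3.3) with TMM factors, filterByExpr by genotype (minimum count 10), a robust quasi-likelihood fit (model terms labelled sex and genotype) over 12 libraries, and Benjamini-Hochberg adjustment over 15229 genes. CPM uses the TMM factors. The deposited TPM values were used for levels between genes. Library totals were 37268242 to 56618266, and floors cover counting error only. Every pair of libraries differed by more than sampling noise (smallest chi-square per degree of freedom 31.1). The series text gives each sample as a different mouse.

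The members, the 5 function lists and the 12 marker lists were chosen with earlier results of these data known. Text names every member, the called genes of each list (where none was called, the 2 with the smallest p), and the 3 genes most alike to each called member. Insr, Ins1, Ins2, Myh11, Pdgfrb, Pappa, Irs1, Irs2, H19, T, Krt19, Acan, Cd24a, Foxa2, Col2a1, Xist, the markers at or near 0 and the genes flanking or overlapping members were named outside that rule for their role, position or values. So were Acta2, Stc1, Stc2, Igf2bp1, Igf2bp2 and Igf2bp3. Alternatives were the sex term, the 4 libraries of contradicted sex left out, DESeq2 1.42.0, limma-voom 3.58.1, other scalings, filters, thresholds, TPM with pseudocounts of 1 and 0.1, a replicate block and each library left out. The pericyte and smooth muscle sum without Cspg4 was added after seeing the data. The main edgeR fit was tested on simulated counts. It recovered 46% of 1.5-fold, 74.7% of 2-fold and 91.5% of 4-fold changes, and 4.11% of its calls were false. A gene that was not called can therefore still differ between the genotypes.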

Additional observations from a re-analysis of the deposited data

Results flagged for a closer look

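Within each genotype, 58 sets of 6 values were examined for a library that stood apart by its gap to the nearest other library relative to the whole range, and 8 did. Such a gap arises by chance in about 1 in 20 sets, so some of the 8 may be of that kind. Of the 8, 6 were high or low values of 1 library, Opa1cKO 6. Igf2 had 2.55 CPM there, against 0.215 to 1.06 CPM in the other Opa1cKO libraries, and Igf2r had 556 CPM, against 310 to 388 CPM. The summed ligand TPM was 2.36 in Opa1cKO 6, against 0.181 to 0.955 in the others, and the summed receptor TPM was 511, against 316 to 345. These sums contain Igf2 and Igf2r, so neither the 6 values nor the 58 sets are independent. Crim1 had 148 CPM in Opa1cKO 6, against 183 to 203 CPM, and Htra3 had 44.4 CPM, against 35.6 to 37.7 CPM. Opa1cKO 3 stood apart for Igfbp7 at 29.7 CPM, against 14.9 to 19.8 CPM in the other Opa1cKO libraries. Opa1cKO 5 stood apart in the ratio of receptor to ligand TPM, at 1901 against 217 to 630. In that library Igf2 rested on 8 counts and Igf1 on 1 count, so the ratio carries a large counting error. No Igfbp5 value of either genotype stood apart.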

How the results depend on the processing

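Igfbp5 was called lower in Opa1cKO in 24 of 24 alternatives, and no member changed sign apart from Igf1r, which was -0.11 and became 0.10 without the 4 libraries of contradicted sex. The 3 called members were 1 (Igfbp5) with the replicate block, without those 4 libraries, and at an adjusted p below 0.01, and 1 to 4 with single libraries left out. The 1558 genes called (777 higher, 781 lower) became 769 (351 and 418) with the replicate block, 325 (188 and 137) without the 4 libraries, 554 (228 and 326) at an adjusted p below 0.01, and 982 (509 and 473) at 1.5-fold or more, and ran from 819 (323 and 496, without Opa1cKO 6) to 1995 with single libraries left out. Without WT 6 the count was 973. In the counts that follow, relatives and proteases stand for all genes of those 2 lists. Without the 4 libraries, called genes were 0 relatives, 1 protease, 1 signalling gene (higher), 0 imprinted genes and 5 genes by labelled sex. DESeq2 called 2 relatives, 6 signalling genes (2 higher and 4 lower), 1 growth hormone gene and 5 genes by labelled sex. Limma-voom and sex by reads each called 2 relatives, the fit with no sex term called 4 signalling genes, and sex by reads called 6 genes by sex. With single libraries left out the lists gave 0 to 2 relatives, 2 to 4 proteases, 0 to 5 signalling genes, 0 to 1 growth hormone gene and 2 to 3 imprinted genes. The cause of these changes was not tested, beyond the fewer libraries in the fits that leave some out. The fit without the 4 libraries kept WT 1, 2 and 3, all female, beside Opa1cKO 1, 2 and 3 (male) and 5 and 6 (female). With the sex term, its genotype difference rested on those WT libraries against Opa1cKO 5 and 6. It is therefore no check of the genotype difference over all 12 libraries. Replicate numbers 1 to 6 did not pair the samples: correlations of same-numbered deviations ran from -0.217 to 0.043. Under the replicate block Igfbp6 was -0.84 and Igf2r 0.44, neither called. Depth limits Igf1, Igfbp2 and Igfbp3, which had at most 19 counts in any library, and reads of overlapping antisense genes cannot be separated from those of Igf2, Igf2r and Igfbp7.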
